A study of Mus musculus with 35 samples.

Results

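Messenger RNA levels of 9 genes of the vascular growth factor families were followed: the VEGF family ligands Vegfa, Vegfb, Vegfc, Vegfd and Pgf, the angiopoietins Angpt1 and Angpt2, the angiopoietin-like gene Angptl4 and the adrenomedullin gene Adm. They were chosen by name as 9 of the 55487 genes in the deposited tables, and all 9 had values and passed the filter on low counts in every comparison. The study measured messenger RNA by sequencing in primary adult mouse cardiac fibroblasts (CFs) and in mouse hearts after loss of IAMP, a micropeptide encoded by 4930523C07Rik. The CFs carried a scrambled control siRNA (si-NC) or 1 of 2 siRNAs against IAMP (si-IAMP-1, si-IAMP-2), and each siRNA was used in untreated cells, in cells given IL-17 and in cells given TGF-β, with 3 libraries for each of these 9 groups. Per the labels the siRNA was given for 24 h and IL-17 for another 24 h. The times for untreated and TGF-β-treated cells are not given in the sources used here. The hearts came from 4 IAMP heterozygous (Het) and 4 IAMP knockout (KO) C57BL/6 mice, 8 weeks old and uninjured, and the Het controls therefore also carried 1 mutant allele. The KO allele is a frameshift made by CRISPR-Cas9 in every cell of the animal, and it removes the peptide and not the transcript.

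VEGF ligands are secreted proteins that bind receptor tyrosine kinases on endothelial cells. Vegfa signals mainly through Kdr and drives the sprouting of blood vessels, Vegfb and Pgf bind Flt1, and Vegfc and Vegfd bind Flt4 and promote lymphatic vessel growth. Angpt1 activates the receptor Tek and stabilizes vessels, whereas Angpt2 acts on the same receptor as a context-dependent antagonist. Angptl4 is a secreted inhibitor of lipoprotein lipase, and adrenomedullin is a vasodilator peptide that signals through Calcrl with Ramp2 or Ramp3. In the heart, fibroblasts and cardiomyocytes are sources of such ligands, and several of the genes, Vegfa, Angptl4 and Adm among them, are known to be induced by hypoxia.

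Total estimated counts were 104139670 to 119232309 per CF library, and total counts were 23497027 to 23857313 per heart. The targeted transcript was low where the labels say it should be: 4930523C07Rik averaged 23.5 CPM (counts scaled to library size, the unit of all levels) with si-NC, 3.00 with si-IAMP-1 and 1.84 with si-IAMP-2 in untreated cells. Its log2 fold changes were -2.97 and -3.69 in untreated cells, -2.85 and -3.44 under IL-17, and -2.23 and -2.65 under TGF-β. Both siRNAs lowered it, so this does not check which IAMP siRNA is which. For untreated and IL-17-treated libraries that assignment was inferred from siRNA numbers in the column names. The descriptions of the TGF-β samples pair these numbers with si-IAMP-1 and si-IAMP-2. In hearts the transcript averaged 17 CPM in Het and 16 CPM in KO, which does not check the label because the frameshift leaves the transcript in place. The summed level of 7 fibroblast markers was 8365 to 16645 CPM in CFs. Of 6 cardiomyocyte markers 1 to 3 were at 0 in each CF library. The sum of 8 endothelial markers, all detected, was 41.6 to 54.6 CPM in untreated and IL-17-treated CFs, 88.4 to 98.5 CPM under TGF-β and 607 to 696 CPM in hearts. No source says that libraries of a group came from separate cultures, so p-values for CFs measure only the spread between these libraries, which may be technical. In bulk RNA, fewer cells of a type and less RNA per cell cannot be told apart.

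All genes are given on GRCm38 with GENCODE vM21 gene bounds. Vegfa lies at chr17:46016993-46032369 on the minus strand, Vegfb at chr19:6982473-6987651 (minus), Vegfc at chr8:54077606-54187096 (plus), Vegfd at chrX:164373378-164402650 (plus) and Pgf at chr12:85166635-85177790 (minus). Angpt1 lies at chr15:42424723-42676977 (minus), Angpt2 at chr8:18690263-18741562 (minus), Angptl4 at chr17:33773750-33781830 (minus) and Adm at chr7:110627661-110629820 (plus). Of these genes, 3 overlap a gene on the opposite strand: Angpt1 with Gm17473, Angpt2 with Mcph1 and Adm with Gm28863. The strand setting of the counting is not given in the sources used here, so reads of these pairs cannot be told apart where they overlap.

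Over the 27 CF libraries, Pgf and Vegfd ran in opposite directions (Pearson r = -0.90 of log2 CPM), whereas Vegfc and Adm rose and fell together (r = 0.92). These are descriptions over libraries that share siRNAs and treatments. The promoters of Pgf, Vegfd, Vegfc and Adm are shown because these genes form the lowest and highest pairs. They are the 250 bases before 1 RefSeq start site of each gene (GRCm38.p6), 5′ to 3′ on the strand of the gene, with motif matches in capitals. The motifs searched on both strands were the hypoxia response cores ACGTG and GCGTG, the AP-1 site TGANTCA, the GC box GGGCGG and the TATA box TATAAA.
Pgf, chr12:85177314-85177563, minus strand: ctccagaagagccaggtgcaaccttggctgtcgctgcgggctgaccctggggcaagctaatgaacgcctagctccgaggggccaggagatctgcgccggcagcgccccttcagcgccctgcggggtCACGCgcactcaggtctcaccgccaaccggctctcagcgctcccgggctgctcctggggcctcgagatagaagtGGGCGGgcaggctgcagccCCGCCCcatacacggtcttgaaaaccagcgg
Vegfd, chrX:164373272-164373521, plus strand: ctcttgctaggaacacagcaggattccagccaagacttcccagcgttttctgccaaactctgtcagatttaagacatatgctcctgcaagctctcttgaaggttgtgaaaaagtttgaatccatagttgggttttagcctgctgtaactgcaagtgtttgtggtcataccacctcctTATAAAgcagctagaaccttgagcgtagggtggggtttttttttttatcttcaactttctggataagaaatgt
Vegfc, chr8:54077282-54077531, plus strand: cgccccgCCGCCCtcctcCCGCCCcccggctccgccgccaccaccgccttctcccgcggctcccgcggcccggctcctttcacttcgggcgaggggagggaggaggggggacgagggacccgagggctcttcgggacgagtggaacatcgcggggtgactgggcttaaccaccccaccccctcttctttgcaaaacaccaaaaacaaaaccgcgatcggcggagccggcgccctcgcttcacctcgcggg
Adm, chr7:110627407-110627656, plus strand: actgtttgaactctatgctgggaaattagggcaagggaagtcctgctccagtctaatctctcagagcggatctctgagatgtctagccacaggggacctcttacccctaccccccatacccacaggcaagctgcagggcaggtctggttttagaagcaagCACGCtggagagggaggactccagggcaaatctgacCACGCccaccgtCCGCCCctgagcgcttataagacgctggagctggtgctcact

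The Pgf window shown held 1 GCGTG core (read on the opposite strand as its complement) and 2 GC boxes. A second RefSeq start site of Pgf, with the window chr12:85175933-85176232, held 0 matches of any of the motifs. The Vegfd window held neither and carried 1 TATA box. Adm carried 2 GCGTG cores and 1 GC box, and Vegfc carried 2 GC boxes. Of 32851 mouse promoters in windows of 300 bases (250 before and 50 after the start), 43.8% hold ACGTG or GCGTG, 35.7% the GC box, 13.6% the TATA box and 7.81% the AP-1 site. A match is a description and not a shown binding site. RefSeq windows were matched for 6 of the 9 genes, Vegfa and Vegfb included. Angpt1, Angpt2 and Angptl4 were not matched.

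The first comparison asked what IAMP knockdown did to these genes in untreated CFs. Pgf and Angpt1 fell and Angptl4, Vegfd, Vegfc, Adm and Angpt2 rose with both siRNAs. With si-IAMP-1, 6 of 9 genes rose and 2 fell at an adjusted p of at most 0.05 (edgeR quasi-likelihood test with Benjamini-Hochberg adjustment over all genes, the test used throughout), where 39.9% of all 19669 genes tested passed. With si-IAMP-2, 5 rose and 2 fell, where 49.3% of all genes passed. Adding a log2 fold change of at least 1, the rule for untreated cells, left 1 higher (Angptl4) and 2 lower (Pgf and Angpt1) with either siRNA, where 4.76% of all genes passed with si-IAMP-1 and 10.7% with si-IAMP-2. The median log2 fold change of the 9 genes was 0.30 with si-IAMP-1 and 0.31 with si-IAMP-2, beside -0.02 over all genes with each. Both siRNAs were compared with the same 3 si-NC libraries.

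Under IL-17, 6 genes rose and 2 fell with si-IAMP-1, where 42.3% of 19906 genes passed, and 5 rose and 2 fell with si-IAMP-2, where 50.6% passed. With a log2 fold change of at least 0.585 added, the rule for stimulated cells, 2 rose and 2 fell with si-IAMP-1 (13.5% of all genes) and 4 rose and 2 fell with si-IAMP-2 (21.7% of all genes). Under TGF-β, 6 rose and 0 fell with si-IAMP-1, where 23.1% of 19891 genes passed, and 5 rose and 3 fell with si-IAMP-2, where 29.9% passed. There only Angptl4 passed with the added fold, with si-IAMP-1 (4.36% of all genes) and with si-IAMP-2 (7.51% of all genes). The counts without the fold were therefore read against a background in which a large part of all genes passed.

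**Figure D1:**
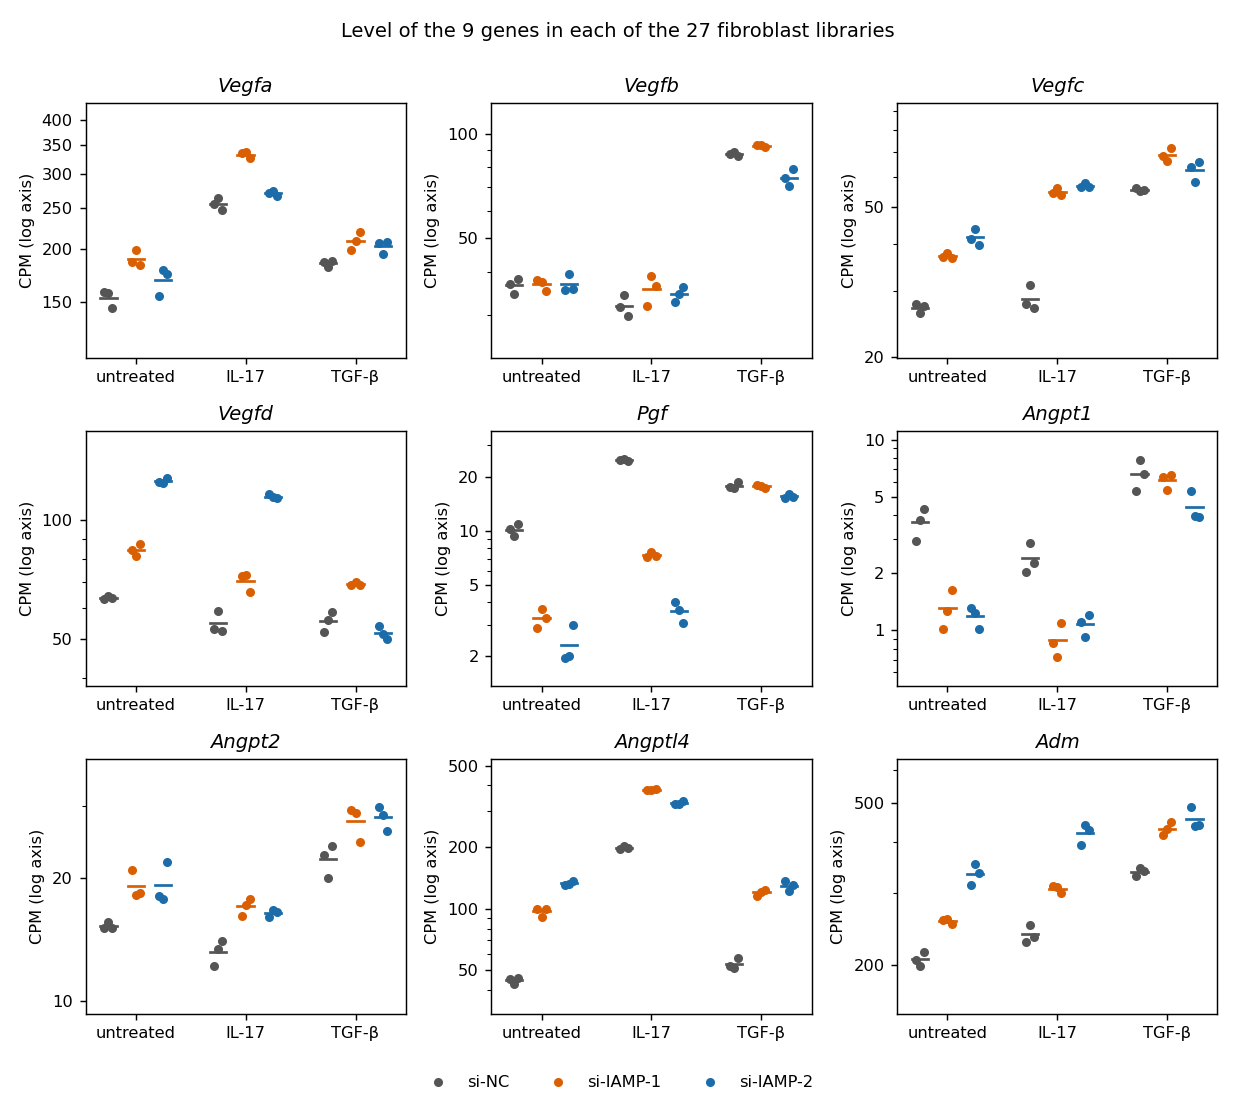
Level of the 9 genes in each of the 27 CF libraries, in CPM on a log axis, with 1 point per library and a line at the group mean. Pgf and Angpt1 sit lower with both IAMP siRNAs in untreated and IL-17-treated cells and meet the si-NC libraries under TGF-β with si-IAMP-1.

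Pgf, placental growth factor, showed the largest change of the 9 genes in untreated and IL-17-treated cells. In untreated cells the 3 si-NC libraries held 10.2, 9.32 and 10.9 CPM, the si-IAMP-1 libraries 2.88, 3.65 and 3.28 CPM and the si-IAMP-2 libraries 1.94, 2.00 and 2.98 CPM. Every knockdown library lay below every control. The level fell to 0.321 of si-NC with si-IAMP-1 (log2 fold change -1.64, SE 0.15, adjusted p = 1.9e-07) and to 0.225 with si-IAMP-2 (-2.15, SE 0.16, adjusted p = 4.1e-09).

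IL-17-treated si-NC cells held more Pgf than untreated si-NC cells, a difference between separately deposited tables. The fall of Pgf was again seen with both siRNAs. The libraries held 24.7, 25.3 and 24.4 CPM with si-NC, 7.10, 7.66 and 7.25 CPM with si-IAMP-1, and 3.98, 3.63 and 3.06 CPM with si-IAMP-2. The 3 groups did not overlap, and the log2 fold changes were -1.77 (SE 0.084, adjusted p = 2.7e-11) and -2.82 (SE 0.089, adjusted p = 5.2e-14). Under TGF-β the values were 17.4, 17.2 and 18.8 CPM with si-NC, 17.9, 17.9 and 17.3 CPM with si-IAMP-1, and 15.3, 16.0 and 15.3 CPM with si-IAMP-2. The si-IAMP-1 libraries lay among the controls (log2 fold change -0.01, SE 0.061, adjusted p = 0.94), and the si-IAMP-2 libraries lay just below them (-0.20, SE 0.061, adjusted p = 0.022). That call was lost without si-IAMP-2 replicate 1 or 3 or si-NC replicate 3 (adjusted p = 0.070 to 0.10).

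Angpt1, the vessel-stabilizing angiopoietin, was the scarcest of the 9 genes per length in CFs and fell with both siRNAs in untreated and IL-17-treated cells. Untreated libraries held 2.93, 3.80 and 4.33 CPM with si-NC, 1.02, 1.26 and 1.63 CPM with si-IAMP-1, and 1.30, 1.23 and 1.02 CPM with si-IAMP-2. Both knockdown groups lay below the controls without overlap (log2 fold changes -1.51, SE 0.21, adjusted p = 1.4e-05, and -1.66, SE 0.21, adjusted p = 3.1e-06). The lowest Angpt1 value in any CF library was 79 estimated counts, above the floor of 18 estimated counts that 3 read pairs give.

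Under IL-17, Angpt1 stood at 2.03, 2.87 and 2.24 CPM with si-NC, 0.857, 0.720 and 1.09 CPM with si-IAMP-1, and 1.11, 0.920 and 1.19 CPM with si-IAMP-2. The groups again did not overlap with si-NC, with log2 fold changes of -1.43 (SE 0.22, adjusted p = 4.5e-05) and -1.17 (SE 0.22, adjusted p = 0.00021). Under TGF-β the libraries held 5.35, 7.85 and 6.59 CPM with si-NC, 6.34, 5.46 and 6.49 CPM with si-IAMP-1, and 5.39, 3.96 and 3.91 CPM with si-IAMP-2. The si-IAMP-1 values lay within the range of the controls (log2 fold change -0.11, SE 0.15, adjusted p = 0.67), and the si-IAMP-2 group was lower with 1 library overlapping (-0.58, SE 0.15, adjusted p = 0.0062). The overlapping gene Gm17473 was too low to be tested in CFs.

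Marker sums of cell types differed between the siRNA groups beside these falls, some lower and some higher with the IAMP siRNAs. The sum of 6 pericyte markers was 100.04 to 114 CPM with si-NC, 63.4 to 69.6 CPM with si-IAMP-1 and 51.4 to 64.4 CPM with si-IAMP-2 in untreated cells, and 151 to 156, 98.2 to 102 and 74.2 to 81.8 CPM under IL-17. Of 5 pericyte markers tested in untreated cells, 0 rose and 2 fell with each siRNA, where 39.9% and 49.3% of all genes passed. These counts were near that background. The 2 that fell were Notch3 (48.0 CPM with si-NC, 15.8 and 10.2 CPM with the IAMP siRNAs) and Cspg4 (58.5, 49.4 and 44.3 CPM). Both were named after their values were seen. Notch3 and Cspg4 made up nearly all of the pericyte sum in untreated cells, so that sum mostly followed these 2 genes. Of the 6 pericyte markers, 2 were under the floor in every untreated library. The sum of cardiomyocyte markers, nearly all Tnnt2, was 90.5 to 98, 42.1 to 47.1 and 27.7 to 32.7 CPM in untreated cells, while Myh6 was at or near 0. In the same cells and order, endothelial sums were 50.2 to 54.6, 42.5 to 48.9 and 43.7 to 47.3 CPM. Macrophage sums were higher with both siRNAs, at 19.2 to 21.1, 23.6 to 24.1 and 31.9 to 33.0 CPM. Fibroblast sums were 8857 to 8939, 11641 to 11941 and 8365 to 8585 CPM. Under TGF-β the pericyte sums were 60.2 to 61.1, 49.2 to 51.4 and 53.4 to 54.9 CPM. Their part in the values of Pgf and Angpt1 was not tested.

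Angpt2, the context-dependent antagonist at Tek, rose modestly with both siRNAs in all 3 settings. Untreated cells held 15.1, 15.5 and 15 CPM with si-NC, 20.8, 18.2 and 18.3 CPM with si-IAMP-1, and 18, 17.7 and 21.9 CPM with si-IAMP-2. The log2 fold changes were 0.32 (SE 0.082, adjusted p = 0.0045) and 0.31 (SE 0.082, adjusted p = 0.0041). Under IL-17 (0.36 and 0.30) and TGF-β (0.31 and 0.34) the log2 fold changes were of similar size, and no knockdown library reached down to a control. The overlapping gene Mcph1 changed by 0.27 with si-IAMP-1 and -0.18 with si-IAMP-2 in untreated cells, on the log2 scale.

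Angptl4, the lipoprotein lipase inhibitor, rose in all 6 comparisons, and its rise was the largest of the 9 genes in untreated and TGF-β-treated cells. In untreated cells it stood at 45.5, 42.8 and 45.9 CPM with si-NC, 99.9, 91.6 and 99.2 CPM with si-IAMP-1, and 131, 131 and 136 CPM with si-IAMP-2. The 3 groups stood apart, at 2.16-fold (log2 fold change 1.11, SE 0.041, adjusted p = 3.1e-12) and 2.93-fold the control (1.55, SE 0.042, adjusted p = 2.0e-14). Under IL-17 the libraries held 195, 203 and 199 CPM with si-NC, 379, 382 and 385 CPM with si-IAMP-1, and 325, 324 and 336 CPM with si-IAMP-2. The order of the siRNAs was thus the other way round from untreated cells, with log2 fold changes of 0.93 (SE 0.028, adjusted p = 7.2e-14) and 0.70 (SE 0.028, adjusted p = 8.5e-13). Under TGF-β the values were 52.5, 51.3 and 57.5 CPM with si-NC, 116, 121 and 124 CPM with si-IAMP-1, and 136, 121 and 131 CPM with si-IAMP-2. Both knockdown groups were above the controls (1.16 and 1.27 on the log2 scale, SE 0.049 each, adjusted p = 4.1e-11 and 7.1e-12) and overlapped each other.

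Vegfd, a lymphatic growth factor, rose more with si-IAMP-2 than with si-IAMP-1 in untreated and IL-17-treated cells. Untreated libraries held 63.3, 64.3 and 63.6 CPM with si-NC, 84.3, 81.3 and 87.3 CPM with si-IAMP-1, and 125, 124 and 128 CPM with si-IAMP-2. The 3 groups did not overlap, and the log2 fold changes were 0.40 (SE 0.035, adjusted p = 9.2e-08) and 0.96 (SE 0.035, adjusted p = 6.2e-13). With IL-17 the values were 53.2, 59.0 and 52.6 CPM with si-NC, 72.1, 72.6 and 65.9 CPM with si-IAMP-1, and 117, 114 and 114 CPM with si-IAMP-2. The groups were again separate, at 0.34 (SE 0.046, adjusted p = 9.4e-06) and 1.04 (SE 0.046, adjusted p = 4.0e-12). Under TGF-β Vegfd stood at 52.3, 56.1 and 58.7 CPM with si-NC, 68.6, 70.0 and 68.8 CPM with si-IAMP-1, and 53.9, 51.5 and 50 CPM with si-IAMP-2. Here si-IAMP-1 libraries were higher (0.31, SE 0.048, adjusted p = 0.00011), and the si-IAMP-2 libraries overlapped the controls (-0.10, SE 0.048, adjusted p = 0.13).

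Vegfc, the other lymphatic growth factor, rose in all 6 comparisons, most under IL-17. Untreated cells held 27.7, 26.2 and 27.2 CPM with si-NC, 36.9, 37.7 and 36.6 CPM with si-IAMP-1, and 41.1, 43.8 and 39.8 CPM with si-IAMP-2. Under IL-17 the values were 27.7, 31 and 27 CPM, then 54.6, 56.4 and 53.9 CPM, then 56.5, 57.8 and 56.7 CPM in the same order of groups. The controls were at a like level in both settings, whereas the knockdown libraries were higher under IL-17. The log2 fold changes were 0.45 and 0.60 in untreated cells (SE 0.048 each, adjusted p = 9.8e-07 and 1.5e-08) and 0.93 and 0.98 under IL-17 (SE 0.049 each, adjusted p = 9.1e-11 and 2.1e-11). Under TGF-β, where the controls held 55.0 to 56.4 CPM, the rises were smaller, at 0.31 (SE 0.049, adjusted p = 0.00015) and 0.17 (SE 0.049, adjusted p = 0.012).

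Adm, the vasodilator peptide gene, rose in all 6 comparisons and was the most abundant of the 9 per length. Untreated libraries held 206, 199 and 215 CPM with si-NC, 258, 259 and 252 CPM with si-IAMP-1, and 315, 354 and 336 CPM with si-IAMP-2. The log2 fold changes were 0.30 (SE 0.039, adjusted p = 6.7e-06) and 0.68 (SE 0.039, adjusted p = 2.0e-10), with the 3 groups apart. Under IL-17 the controls held 229 to 252 CPM and the knockdown libraries 301 to 313 CPM and 394 to 440.4 CPM (0.36 and 0.80, SE 0.039 and 0.040, adjusted p = 8.4e-07 and 1.7e-11). Under TGF-β the controls held 330.2 to 346 CPM and the knockdown libraries 417 to 448 CPM and 437 to 488 CPM (0.35 and 0.43, SE 0.042 each, adjusted p = 8.6e-06 and 5.5e-07). The overlapping antisense gene Gm28863 had log2 fold changes of 2.04 and 2.29 in untreated cells and 1.69 and 1.30 under IL-17, at levels under 1 CPM.

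Vegfa, the main driver of blood vessel sprouting, rose with si-IAMP-1 in all 3 settings, and with si-IAMP-2 it passed under TGF-β and missed the threshold in untreated and IL-17-treated cells. Untreated cells held 159, 158 and 145 CPM with si-NC, 186, 198 and 184 CPM with si-IAMP-1, and 155, 179 and 175 CPM with si-IAMP-2. The si-IAMP-1 group was above the controls (log2 fold change 0.29, SE 0.049, adjusted p = 0.00017), and the si-IAMP-2 group overlapped them (0.12, SE 0.049, adjusted p = 0.060). Under IL-17 the controls held 247 to 263 CPM, si-IAMP-1 libraries 326 to 337 CPM and si-IAMP-2 libraries 265 to 274 CPM (0.38, SE 0.028, adjusted p = 9.0e-09, and 0.06, SE 0.028, adjusted p = 0.080). Under TGF-β both groups were slightly higher (0.17, SE 0.039, adjusted p = 0.0031, and 0.13, SE 0.039, adjusted p = 0.015).

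Vegfb, a Flt1 ligand, gave no call in 5 of the 6 comparisons. Its untreated libraries ranged from 34.6 to 39.5 CPM over all 3 siRNAs, with log2 fold changes of 0.00 and -0.01 (SE 0.054 each, adjusted p = 0.96 and 0.94). Under IL-17 they ranged from 29.9 to 38.9 CPM (0.15 and 0.09, adjusted p = 0.097 and 0.33). Under TGF-β the controls held 86.3 to 88.4 CPM, si-IAMP-1 libraries 91.8 to 92.6 CPM and si-IAMP-2 libraries 70.8 to 79.0 CPM. The si-IAMP-2 group was lower (-0.22, SE 0.041, adjusted p = 0.00039), and si-IAMP-1 did not pass (0.08, SE 0.040, adjusted p = 0.18).

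**Figure D2:**
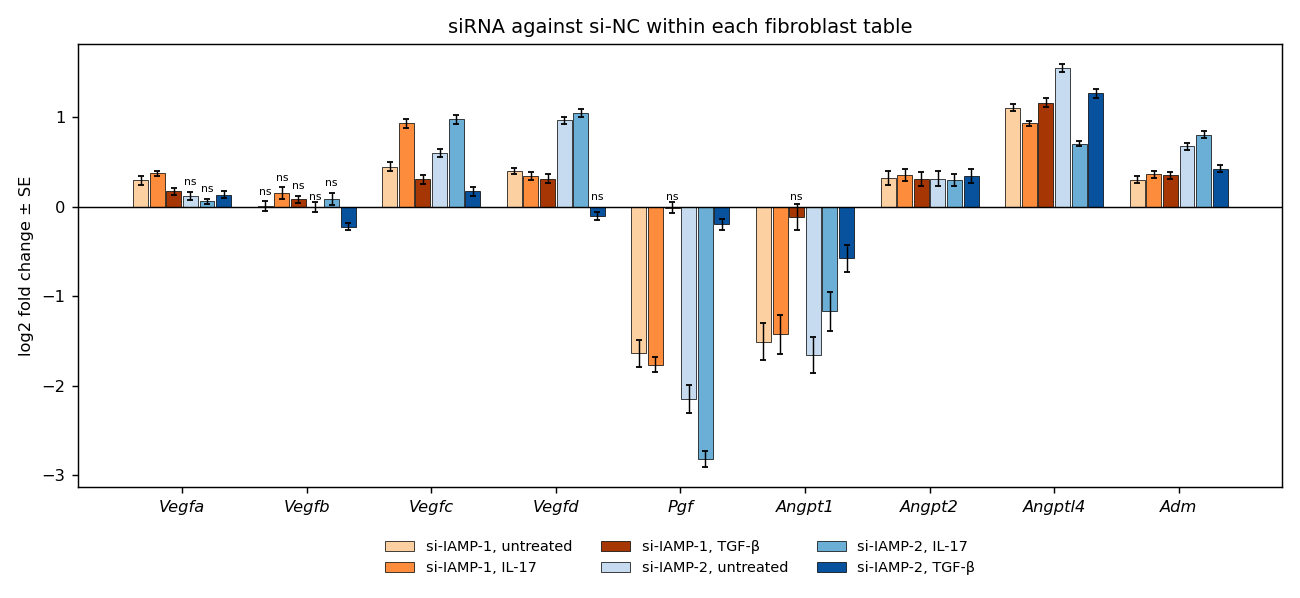
Log2 fold change of each gene with si-IAMP-1 and si-IAMP-2 against si-NC in untreated, IL-17-treated and TGF-β-treated CFs, with error bars of 1 SE from the edgeR fit and "ns" where the adjusted p was above 0.05. Pgf runs from -1.64 and -2.15 in untreated cells to -0.01 and -0.20 under TGF-β, whereas Angptl4 is positive in all 6.

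The siRNAs themselves were compared, since both target the same transcript. In untreated cells 4 of the 9 genes were higher and 2 lower with si-IAMP-2 than with si-IAMP-1, where 45.5% of all genes passed. Vegfd (log2 difference 0.57, SE 0.035), Angptl4 (0.44, SE 0.040), Adm (0.37, SE 0.038) and Vegfc (0.15, SE 0.048) were higher, and Pgf (-0.51, SE 0.15) and Vegfa (-0.18, SE 0.049) were lower. Under IL-17, 2 were higher and 3 lower, where 46.2% of all genes passed: Vegfd (0.70, SE 0.046) and Adm (0.44, SE 0.039) were higher, and Pgf (-1.05, SE 0.088), Vegfa (-0.31, SE 0.028) and Angptl4 (-0.23, SE 0.027) were lower. Under TGF-β, 0 were higher and 4 lower, where 24% of all genes passed: Vegfd (-0.42, SE 0.048), Vegfb (-0.30, SE 0.041), Angpt1 (-0.46, SE 0.15) and Pgf (-0.18, SE 0.061). The targeted transcript was also lower with si-IAMP-2 than with si-IAMP-1 in each setting, by log2 differences of -0.72, -0.58 and -0.41.

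The IL-17 libraries and the untreated libraries were deposited in separate tables, so the stimulus and the experiment cannot be told apart in the next values. In si-NC cells, Angptl4, Pgf, Vegfa and Adm were higher under IL-17, and Vegfd, Angpt1 and Vegfb were lower. That made 4 higher and 3 lower of 9, where 13.6% of 21219 genes passed. Angptl4 was 4.44-fold higher (log2 difference 2.15, SE 0.035, adjusted p = 1.8e-24), Pgf 2.44-fold (1.29, SE 0.12, adjusted p = 7.4e-09) and Vegfa 1.65-fold (0.73, SE 0.042, adjusted p = 1.1e-12). Adm was higher by 0.20 (SE 0.041, adjusted p = 0.00095). Vegfd (-0.22, SE 0.042, adjusted p = 0.00044), Angpt1 (-0.63, SE 0.21, adjusted p = 0.042) and Vegfb (-0.20, SE 0.065, adjusted p = 0.044) were lower. Of 18 fits that left out 1 library, 6 lost the call of Angpt1 (si-NC replicates 2 and 3 and si-IAMP-1 replicate 2 of untreated cells, si-NC replicates 1 and 3 and si-IAMP-2 replicate 1 under IL-17; adjusted p = 0.050 to 0.21). The call of Vegfb was lost in 8 (si-NC replicates 1 and 3, si-IAMP-1 replicates 1 and 2 and si-IAMP-2 replicate 1 of untreated cells, si-NC replicates 1 and 3 and si-IAMP-2 replicate 2 under IL-17; adjusted p = 0.050 to 0.22). Vegfc (0.08, adjusted p = 0.39) and Angpt2 (-0.21, adjusted p = 0.074) did not pass.

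With si-IAMP-1, 5 genes were higher and 1 lower under IL-17 (16.1% of all genes passed), and with si-IAMP-2 it was again 5 and 1 (13.7%). In both, Vegfa (0.81 and 0.68), Vegfc (0.56 and 0.46), Pgf (1.16 and 0.63), Angptl4 (1.97 and 1.31) and Adm (0.26 and 0.34) were higher and Vegfd (-0.27 and -0.13) was lower, on the log2 scale.

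TGF-β libraries were also a table of their own, so the same limit holds. In si-NC cells 8 genes were higher and 1, Vegfd, was lower, where 57.3% of 21508 genes passed. Vegfb (log2 difference 1.25, SE 0.049, adjusted p = 7.8e-17) and Vegfc (1.04, SE 0.049, adjusted p = 3.5e-15) were over 2-fold higher, at 2.39-fold and 2.05-fold. Angpt1 (0.84, SE 0.18), Pgf (0.81, SE 0.11), Adm (0.71, SE 0.044), Angpt2 (0.54, SE 0.087), Vegfa (0.26, SE 0.049) and Angptl4 (0.26, SE 0.048) were higher by less. Vegfd was lower (-0.20, SE 0.041, adjusted p = 0.00017). The sum of endothelial markers was 50.2 to 54.6 CPM in untreated si-NC libraries and 95.5 to 96.9 CPM in TGF-β si-NC libraries, and that of pericyte markers was 100.04 to 114 and 60.2 to 61.1 CPM, with 2 of 5 tested higher and 2 lower and a median log2 difference of 1.17. The macrophage sum was 19.2 to 21.1 and 41.4 to 48.6 CPM, and the cardiomyocyte sum 90.5 to 98 and 5.29 to 5.93 CPM. Their part in these differences was not tested.

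With si-IAMP-1, 8 genes were higher and 1 lower under TGF-β (57.3% of all genes passed), and with si-IAMP-2, 7 were higher and 1 lower (57.6%). The differences of Pgf (2.43 and 2.75) and Angpt1 (2.23 and 1.90) were larger there than in si-NC cells. Vegfd was lower by 0.29 with si-IAMP-1 (log2 difference -0.29) and by more with si-IAMP-2 (-1.28, SE 0.041, adjusted p = 2.1e-18). Angptl4 with si-IAMP-2 did not pass (-0.04, adjusted p = 0.49).

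**Figure D3:**
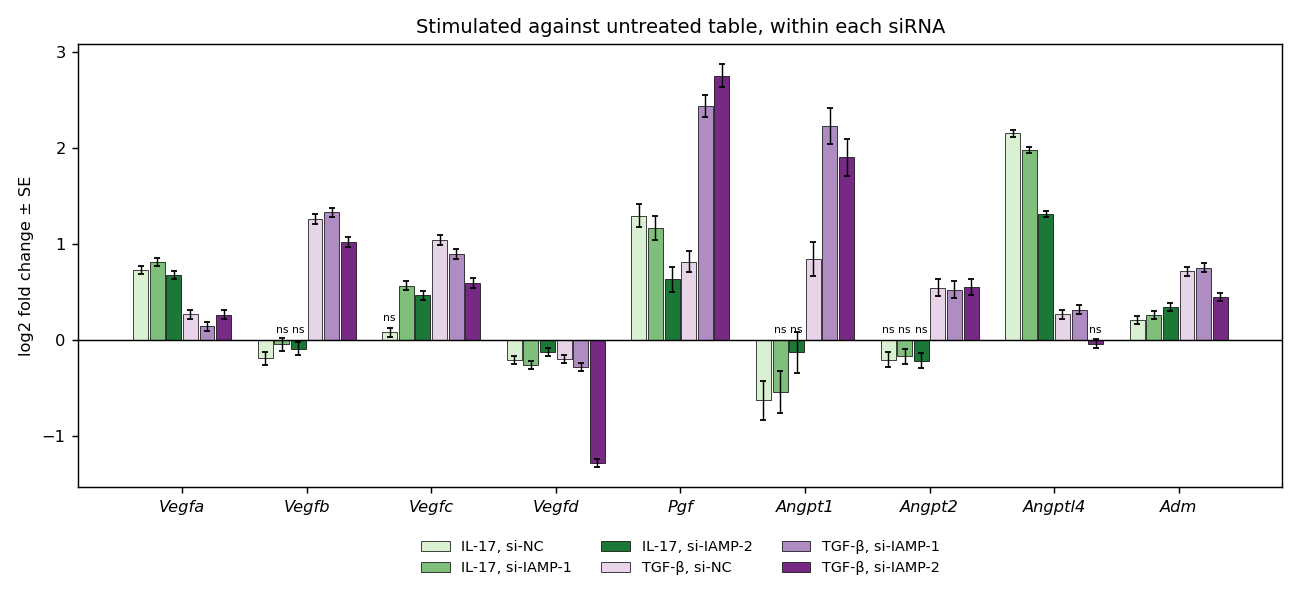
Log2 difference of each gene between IL-17-treated or TGF-β-treated and untreated CFs, for si-NC, si-IAMP-1 and si-IAMP-2 cells, with error bars of 1 SE from the edgeR fit and "ns" where the adjusted p was above 0.05. The 2.15 of Angptl4 under IL-17 and the 2.43 and 2.75 of Pgf under TGF-β with the IAMP siRNAs stand out.

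Whether a siRNA effect differed between settings was tested as an interaction, in which a shift common to all libraries of a table cancels. A siRNA effect that differed between the experiments for another reason does not cancel. Stimulus and experiment therefore cannot be told apart in the interactions either. Between IL-17 and untreated cells, 1 gene differed with si-IAMP-1, where 2.13% of all genes passed, and 3 differed with si-IAMP-2, where 1.89% passed. The effect on Vegfc was larger under IL-17 with both siRNAs, by 0.49 (SE 0.067, adjusted p = 5.3e-05) and 0.39 (SE 0.067, adjusted p = 0.00088) on the log2 scale. With si-IAMP-2 the rise of Angptl4 was smaller under IL-17 (-0.84, SE 0.048, adjusted p = 8.3e-12) and the fall of Pgf was deeper (-0.66, SE 0.17, adjusted p = 0.0496). The Pgf call was lost in 12 of 18 fits that left out 1 library: any IL-17 library except si-IAMP-2 replicate 1, and, of the untreated ones, si-NC replicates 1 and 2, si-IAMP-1 replicate 3 and si-IAMP-2 replicate 3 (adjusted p = 0.065 to 0.22). The targeted transcript itself did not differ in this way (0.12 and 0.26, adjusted p = 0.88 and 0.66).

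Between TGF-β and untreated cells, 2 genes differed with si-IAMP-1, where 19.6% of all genes passed, and 7 differed with si-IAMP-2, where 30.2% passed. The fall of Pgf was smaller under TGF-β by 1.62 (SE 0.16, adjusted p = 4.7e-08) and 1.94 (SE 0.16, adjusted p = 1.1e-09). That of Angpt1 was smaller by 1.39 (SE 0.26, adjusted p = 0.00025) and 1.06 (SE 0.26, adjusted p = 0.0023). With si-IAMP-2 the effect on Vegfd was lower under TGF-β (-1.09, SE 0.058, adjusted p = 5.7e-13), and so were those on Vegfc (-0.45), Angptl4 (-0.30), Adm (-0.27) and Vegfb (-0.24). The knockdown of 4930523C07Rik was also smaller under TGF-β, by 0.73 (SE 0.15, adjusted p = 0.0011) and 1.03 (SE 0.16, adjusted p = 1.7e-05), and its part in these differences was not tested.

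The order of the 9 genes can be compared between genes only per length, as mean CPM per kilobase of merged exon. In untreated si-NC cells it ran from Adm at 128 ± 4.98 (SD, n = 3) through Vegfa at 35.9 ± 1.77, Vegfd at 26.5 ± 0.208, Vegfb at 22.8 ± 1.12, Angptl4 at 12.6 ± 0.477 and Vegfc at 11.0 ± 0.318 to Angpt2 at 4.13 ± 0.0764, Pgf at 3.49 ± 0.267 and Angpt1 at 0.708 ± 0.136. No neighbours in that order overlapped. Under IL-17, Angptl4 at 56.2 ± 1.08 stood just below Vegfa at 59.5 ± 1.90, and Pgf at 8.54 ± 0.150 stood above Angpt2 at 3.57 ± 0.255. Under TGF-β, Vegfb at 54.4 ± 0.631 stood next to Adm at 209 ± 5.05, and Vegfd (23.1 ± 1.33) and Vegfc (22.7 ± 0.272), as well as Pgf (6.14 ± 0.289) and Angpt2 (6.01 ± 0.557), overlapped. Knockdown moved the order too: in untreated si-IAMP-2 cells Vegfd at 52.4 ± 0.854 stood above Vegfa, and Pgf at 0.795 ± 0.200 stood lower than in controls.

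**Figure D4:**
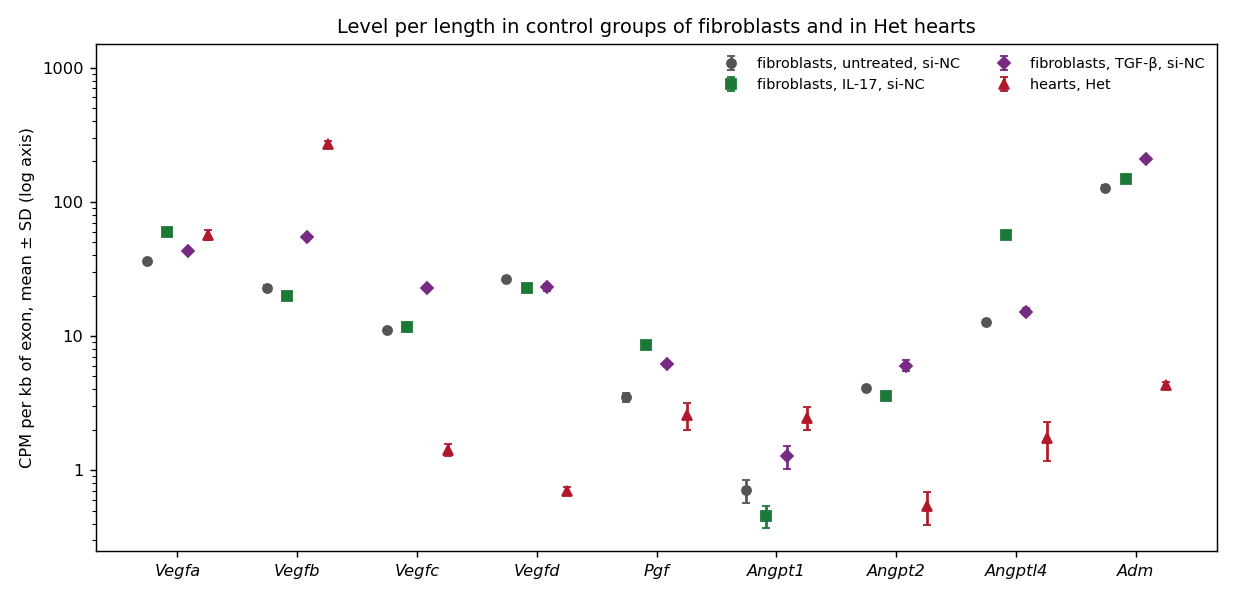
Mean level of the 9 genes per kilobase of merged exon (CPM per kb, log axis), with error bars of 1 SD, in untreated, IL-17-treated and TGF-β-treated si-NC CFs (n = 3 each) and in Het hearts (n = 4). Adm leads in the 3 CF groups at 128, 147 and 209, and Vegfb leads in hearts at 271.

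The genes whose log2 CPM ran most like each member over the 27 CF libraries, 3 for each but Angpt2, are given as a description, with no p. Pgf was closest to N4bp1 (r = 0.96), Tnfsf10 (0.94) and Tut4 (0.94), and Angpt1 to Celf5, Inpp5b and Anks1b (0.97 each). Angptl4 was closest to Ptx3, Snx18 and Ets2 (0.94 each), and Vegfa to Slc7a2 (0.94), Lif (0.94) and Plk2 (0.93). Vegfb was closest to Rarg, Nsdhl and Plxdc2 (0.99 each), Vegfc to Nfe2l1 (0.96), Trp53inp2 (0.96) and Mt1 (0.95), and Vegfd to Atp6v1a (0.95), Hdgf (0.94) and Flii (0.94). Angpt2 was close to Fads1 (0.95) and Acp2 (0.94), and Adm closest to Snhg11, Ubap1 and Pnp (0.96 each). These libraries share siRNAs, treatments and tables.

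The receptors for these ligands were present in CFs, and Flt4, Flt1 and Kdr fell with both siRNAs in untreated and IL-17-treated cells. Of 10 receptors and co-receptors, 2 rose and 3 fell with si-IAMP-1 and 2 rose and 5 fell with si-IAMP-2 in untreated cells, with medians of -0.33 and -0.21 on the log2 scale beside -0.02 over all genes. Of all genes, 39.9% and 49.3% passed, so the si-IAMP-1 count was near the background. Under IL-17 the counts were 3 and 4, then 2 and 5 (42.3% and 50.6% of all genes passed), and under TGF-β they were 4 and 0, then 3 and 3 (23.1% and 29.9%). Flt4, the receptor of Vegfc and Vegfd, fell by 1.06 and 1.14 on the log2 scale in untreated cells (56.5 CPM with si-NC, 27.2 and 25.9 CPM with the IAMP siRNAs). Flt1, the receptor of Pgf and Vegfb, fell by 0.57 and 1.63, from 43.0 to 29.1 and 14.0 CPM. Kdr, the receptor of Vegfa, fell by 0.76 and 0.73 from 6.18 CPM.

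Under TGF-β with si-IAMP-1, none of these VEGF receptors passed, with log2 fold changes of -0.16 for Flt4, 0.02 for Flt1 and 0.34 for Kdr. This holds for si-IAMP-1 only. With si-IAMP-2 under TGF-β, 3 of the 10 receptors and co-receptors rose and 3 fell, where 29.9% of all genes passed. The values of Flt4, Flt1 and Kdr in that comparison are not reported here, so whether their falls were absent with both siRNAs is not shown. Nrp2, a co-receptor, rose with si-IAMP-1 (0.55) and fell with si-IAMP-2 (-1.09) in untreated cells. The co-receptor Nrp1 did not pass with si-IAMP-1 (0.12) and fell with si-IAMP-2 (-0.37). Tek, the angiopoietin receptor, stood at -0.09 with si-IAMP-1, not passed, and rose by 0.57 with si-IAMP-2, while the related Tie1 passed with neither (0.23 and -0.06). Calcrl, the receptor of adrenomedullin, rose in all 6 comparisons, by 0.21 and 1.30 in untreated cells, 0.61 and 1.49 under IL-17, and 0.76 and 0.89 under TGF-β. Its partners Ramp2 and Ramp3 did not pass in any of the 6. The endothelial marker list, which holds Kdr, had 0 of 8 genes higher and 3 lower with each siRNA in untreated cells. Of all genes, 39.9% and 49.3% passed there, so these counts did not exceed the background. The part of endothelial cells in the receptor values was not tested.

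Among 8 tested angiopoietin-like and adrenomedullin-related genes, 0 rose and 3 fell with si-IAMP-1 and 2 rose and 2 fell with si-IAMP-2 in untreated cells. These counts were near the 39.9% and 49.3% of all genes that passed. Angptl2, a secreted angiopoietin-like protein, fell in all 6 comparisons, by 0.73 and 1.37 in untreated cells (186 CPM with si-NC, 113 and 73.1 CPM with the IAMP siRNAs). Ackr3, a scavenger receptor that also binds adrenomedullin, fell with si-IAMP-1 (-0.73) and rose with si-IAMP-2 (1.30). Of 14 other angiogenic ligands tested, 4 rose and 6 fell with si-IAMP-1 and 2 rose and 9 fell with si-IAMP-2, with medians of -0.10 and -0.34, where again 39.9% and 49.3% of all genes passed. Apln, the vascular peptide apelin, fell by 1.06 and 1.43, and Edn1, the vasoconstrictor endothelin, fell by 0.73 and 1.98. Efnb2, a membrane-bound ligand of vessel growth, rose by 0.90 and 1.26.

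The last comparison asked whether hearts without the IAMP peptide differed in these genes from Het hearts. None of the 9 passed the test, where 0% of 16675 genes passed with edgeR and 3 genes passed with DESeq2. At an unadjusted p under 0.05 edgeR gave 601 genes and DESeq2 343, and none of the 9 was among them in either. The log2 differences, KO minus Het, ran from -0.20 (Vegfc, SE 0.11) to 0.21 (Pgf, SE 0.21), with an adjusted p of 1 for each in edgeR. Every one of the 9 overlapped between the genotypes.

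Vegfb was the most abundant of the 9 in hearts, with 424, 471, 424 and 418 CPM in Het and 445, 414, 429.9 and 407 CPM in KO. Vegfa held 219, 243, 242 and 272 CPM in Het and 225, 242, 198 and 250.3 CPM in KO, and Adm 6.48 to 7.50 CPM and 5.99 to 6.90 CPM. Per kilobase, Vegfb stood at 271 ± 15.4 (SD, n = 4) in Het hearts, Vegfa at 56.9 ± 5.02 and Adm at 4.30 ± 0.267. Below them Pgf (2.56 ± 0.578), Angpt1 (2.46 ± 0.490), Angptl4 (1.73 ± 0.551) and Vegfc (1.42 ± 0.143) overlapped from neighbour to neighbour, and so did Vegfd (0.697 ± 0.0478) and Angpt2 (0.537 ± 0.149). In KO hearts, Angpt1 and Angptl4 had the widest spread relative to their means. Angpt1 stood at 16.4, 12.8, 11.2 and 10.8 CPM in Het and 10.4, 9.83, 19.3 and 9.91 CPM in KO, and Angptl4 at 8.82, 4.78, 6.23 and 4.6 CPM and 4.73, 3.88, 11.2 and 4.74 CPM. The same Het heart and the same KO heart were highest for both. The smallest count behind any of the 9 in a heart was 28, of Vegfd, above the floor of 3 counts.

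**Figure D5:**
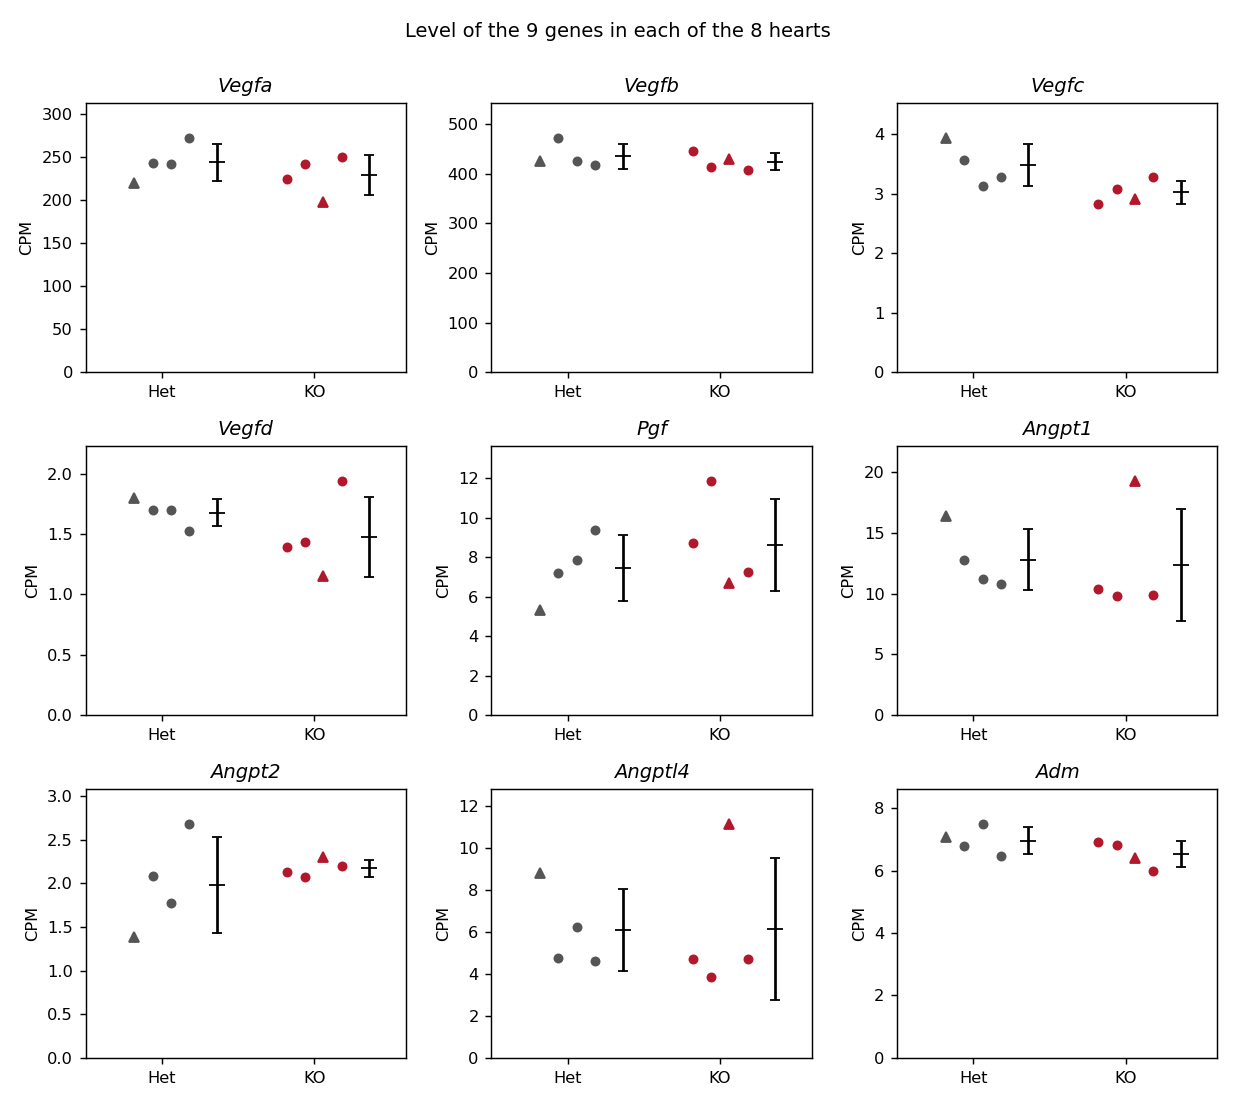
Level of the 9 genes in each Het and KO heart (CPM), with 1 point per heart and bars of the group mean ± SD (n = 4). Triangles mark the Het heart and the KO heart that were highest for Angpt1 and Angptl4, which were picked after their values were seen, and the genotypes overlap in every panel.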

How the data were processed

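Messenger RNA was enriched with oligo(dT) beads and sequenced from CFs and hearts. Per the submitters' processing notes, the authors used cutadapt, HISAT2, GRCm38, StringTie and DESeq2. The deposited CF tables hold estimated counts made from StringTie coverage, about 6 per read pair, so 3 read pairs correspond to 18 estimated counts. They were whole as deposited. The deposited heart table holds raw counts per gene. No column was left unmapped (0 columns). No replicates held identical values, and the lowest chi-square per degree of freedom between replicates was 1.92.

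Tests were run on the counts as deposited with edgeR 4.0.16 (limma 3.58.1, R 4.3.3): quasi-likelihood, TMM, filterByExpr and Benjamini-Hochberg adjustment over all genes. The siRNA groups of a table entered 1 fit, and stimuli and interactions used both tables together. The SE was taken from the log2 fold change and its F statistic. CPM in CFs used 1 TMM scaling over all 27 libraries, and hearts used their own. The alternatives were DESeq2 1.42.0, RLE size factors, other filters, division by 6, a replicate block, only the groups compared and leaving out libraries. Tests were tried on simulated data. The number of libraries limits the precision.

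Named were all 9 members in every comparison, every receptor, up to 3 rises and 3 falls per gene list and comparison at 1 CPM or more, and the 3 genes most like each member. For Angpt2, 1 of these genes is not reported here. The members and lists were chosen with earlier results of these data known. Promoter sequences are from RefSeq.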

Additional observations from a re-analysis of the deposited data

Results flagged for a closer look

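In hearts, 3 groups of 4 had 1 sample far from the others, with a gap that took more of the range than Dixon's critical value for groups of 4. Chance marks about 1 in 20 groups, and 18 groups of hearts were looked at. Vegfb in Het hearts had a gap of 0.874 of the range, from 1 heart at 471 CPM. Angpt1 in KO hearts had a gap of 0.942, from 1 heart at 19.3 CPM, and Angptl4 in KO hearts had a gap of 0.882, from the same heart at 11.2 CPM. The summed fibroblast markers were 523 to 797 CPM in Het hearts and 673 to 703 CPM in KO hearts.

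For 3 genes the siRNA effect differed between TGF-β-treated and untreated CFs by the interaction test and by a log2 difference of at least 1. The effect on Pgf was higher under TGF-β by 1.62 with si-IAMP-1 and 1.94 with si-IAMP-2 on the log2 scale. For Angpt1 the differences were 1.39 and 1.06, and for Vegfd the difference was -1.09 with si-IAMP-2.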

How the results depend on the processing

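No value reversed under any alternative run. Of the log2 fold changes and calls compared with the reported ones, 175 of 180 kept direction and side of the threshold with DESeq2, 178 of 180 with RLE size factors, 177 of 180 without a filter on low counts, 177 of 180 with at least 10 counts in every library, 169 of 171 after division by 6, 81 of 81 with only the groups compared and 2350 of 2421 on leaving out 1 library. CPM with RLE size factors differed by at most 1.01-fold.

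Requiring the fold as well lowered most of the counts. They became 3 and 3 for si-IAMP-1 and si-IAMP-2 in untreated cells (4.76% and 10.7% of all genes). Under IL-17 they became 4 for si-IAMP-1 (13.5% of all genes), and 4 higher and 2 lower for si-IAMP-2 (21.7%). Under TGF-β they became 1 and 1 (4.36% and 7.51% of all genes). Between the siRNAs they became 0, 2 and 0 in untreated, IL-17 and TGF-β cells (6.65%, 15.7% and 3.96% of all genes). For IL-17 against untreated they became 4, 3 and 3 with si-NC, si-IAMP-1 and si-IAMP-2 (3.08%, 3.78% and 3.33% of all genes). For TGF-β they became 5 each (34.9%, 34.5% and 34.7% of all genes). For interactions they became 0 and 0 with IL-17 (0.189% and 0.165% of all genes) and 3 for si-IAMP-2 with TGF-β (5.09% of all genes). The interaction count of si-IAMP-1 with TGF-β stayed at 2 (2.36% of all genes). The interaction count of si-IAMP-1 with IL-17 was 1 and became 2, with Angptl4 added, under DESeq2, RLE size factors and at least 10 counts. DESeq2 also called Vegfa with si-IAMP-2 in untreated cells (adjusted p = 0.035) and under IL-17 (adjusted p = 0.035).

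Leaving out each library in turn gave 5 to 9 calls for si-IAMP-2 under TGF-β, 2 to 4 for si-IAMP-2 against si-IAMP-1 under TGF-β, and 1 to 2 for the si-IAMP-1 interaction with IL-17. With all libraries kept, 29.9%, 24% and 2.13% of all genes passed in these comparisons. The shares on leaving out a library are not reported here. Under TGF-β with si-IAMP-2, Pgf (adjusted p = 0.070 to 0.10), Vegfa (0.055 to 0.072) and Vegfc (0.052 to 0.064) were lost without si-IAMP-2 replicate 1 or 3. Pgf was also lost without si-NC replicate 3, and Vegfa without si-NC replicate 2. With si-IAMP-1, Angpt2 was lost without si-IAMP-1 replicate 1 (0.058). Between the siRNAs under TGF-β, Pgf was lost without any 1 of the 6 libraries and Angpt1 without 4 of them (si-IAMP-2 replicates 2 and 3, si-IAMP-1 replicates 1 and 3). In untreated cells, Pgf between the siRNAs was lost without si-IAMP-2 replicate 1 or 2 or si-IAMP-1 replicate 2, and Vegfc without si-IAMP-2 replicate 2 or si-IAMP-1 replicate 3. For IL-17 against untreated cells, Vegfd with si-IAMP-2 was lost without si-IAMP-2 replicates 1 or 3 of untreated cells or 2 or 3 of IL-17 cells (0.079 to 0.15). For TGF-β against untreated cells, Vegfa with si-IAMP-1 was lost without si-IAMP-1 replicates 1 or 3 of untreated cells or 3 of TGF-β cells (0.073 to 0.11). The interaction of Vegfb with TGF-β was lost without TGF-β si-IAMP-2 replicate 2 (0.081). The losses of Angpt1, Vegfb and Pgf with IL-17 stand beside their values. Without a filter on low counts, Angpt1 (0.065) and Vegfb (0.052) for IL-17 in si-NC cells and Pgf between the siRNAs under TGF-β (0.054) also missed the threshold, and Vegfb did with RLE size factors (0.058). The cause was not tested.

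Same-numbered CF libraries showed no shared deviation: 0 of 9 pairs in each table had a correlation over 0.1 (range -0.065 to 0.028). With 3 libraries per group this cannot show whether same-numbered libraries were made together. The main tests did not pair them. With a replicate block, 164 of 171 values kept their call, those of Angpt1 (si-NC) and Vegfd (si-IAMP-2) for IL-17 against untreated and of Pgf and Angpt1 between the siRNAs under TGF-β were lost, the interaction count of si-IAMP-1 with IL-17 became 2, and the count for si-IAMP-2 in untreated cells became 8. No paired analysis was possible in hearts because their columns carry no replicate numbers.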

Other observations

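In a list of 15 hypoxia pathway genes, which holds regulators such as Hif1a, Epas1 and Vhl as well as target genes, more rose than fell with IAMP knockdown. Of these 15, 7 rose and 2 fell with si-IAMP-1 and 10 rose and 1 fell with si-IAMP-2 in untreated cells (39.9% and 49.3% of all genes passed), 10 and 0 then 10 and 1 under IL-17 (42.3% and 50.6%), and 10 and 1 then 8 and 1 under TGF-β (23.1% and 29.9%). The genes named next are rises only. The median log2 fold changes of the 15 in untreated cells were 0.09 and 0.40, beside -0.02 over all genes. Bnip3, a mitophagy receptor, rose by 0.69 and 1.39 in untreated cells, from 26.9 to 43.5 and 71.4 CPM. Slc2a1, a glucose transporter, rose by 0.45 and 0.94, and Ndrg1 by 0.98 and 0.91. Hif1a, which encodes the oxygen-regulated factor itself and is 1 of the 15, was named after its values were seen, and rose by 0.35 and 0.45. The study reported, by qPCR in IAMP-knockdown CFs, no rise of the Hif1a transcript beside higher HIF-1α protein. The cause of this difference was not tested.

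Of 12 inhibitors of vessel growth, 6 rose and 3 fell with si-IAMP-1 and 3 rose and 7 fell with si-IAMP-2 in untreated cells, where 39.9% and 49.3% of all genes passed. Timp3, an inhibitor of metalloproteinases and of Kdr signaling, rose by 0.97 and 0.88. Col4a3, a collagen chain whose fragment inhibits vessel growth, fell with si-IAMP-2 by 1.19. Of 8 target genes of the PPAR nuclear receptors, which are known to induce Angptl4, 2 rose and 4 fell with si-IAMP-1 and 4 rose and 2 fell with si-IAMP-2, against the same shares of all genes. The median log2 fold changes of these 8 targets in untreated cells were -0.07 and 0.10, beside -0.02 over all genes. Pdk4, a PPAR target, fell in all 6 comparisons, by 0.72 and 0.19 in untreated cells. The PPAR targets that rose are not named here. In hearts, 0 genes of these 3 lists passed the edgeR test, as for all genes.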
